A study of Homo sapiens with 12 samples.

Results

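DKK1 and 9 other genes of the Wnt pathway were followed across A375 human melanoma cells that carried an empty vector or 1 of 3 mutants of YAP, the transcriptional co-activator held in check by the Hippo pathway. The genes were taken by symbol from the deposited table of 31585 distinct loci, and they comprised the ligands WNT5A and WNT5B, the secreted antagonists DKK1, DKK3 and SFRP1, the receptors FZD2, FZD7 and ROR2, and the beta-catenin target genes LEF1 and AXIN2. Each of the 10 had 1 locus. The AXIN2 locus was shared with the neighbouring gene CEP112, so its values cannot be given to AXIN2 alone.

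Wnt ligands are secreted glycoproteins that bind Frizzled receptors at the cell surface. Together with the co-receptors LRP5 or LRP6 they keep beta-catenin from being degraded, so that it enters the nucleus and works with TCF and LEF factors. WNT5A and WNT5B signal mostly through Frizzled and ROR receptors without beta-catenin, and in melanoma WNT5A is known for its link with cell motility. DKK1 blocks the beta-catenin branch by binding LRP5 and LRP6, whereas SFRP1 binds the ligands themselves. DKK3 is a divergent member of the DKK family. AXIN2 and LEF1 are widely used readouts of beta-catenin activity, although LEF1 also marks cell lineages.

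All cells were stably transduced with the retroviral vector MSCV-IRES-Hygro, and 3 cultures of each line gave 12 libraries. Control cells had the vector alone. YAP-S127A lacks a phosphorylation site through which YAP is kept in the cytoplasm. YAP-S94A,S127A carries in addition a change that prevents binding to the TEAD transcription factors. YAP-S127A,S381A lacks a further site whose phosphorylation leads to degradation of YAP. The vector drives YAP from a viral promoter, and the cells were grown at sub-confluence in medium with serum. A field of the sample records also lists S94A for the YAP-S127A,S381A libraries, but their titles and the study's list of vectors do not, and the titles were followed. How many transductions each line came from is not given in the sources used here, so the p-values measure the spread between these cultures, which may be smaller than that between independently made lines.

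The values were FPKM, numbers of sequenced fragments scaled to transcript length and library yield, deposited as log2(FPKM + 1). Because of the scaling to length, levels of different genes may be set side by side. The files gave no read depth. Each library had 20161 to 20656 loci above 0. A gene was said to have risen or fallen when its adjusted p was under 0.05 in a limma fit of all tested loci and the ratio of group mean FPKM was over 2. The 15055 loci with at least 1 FPKM in at least 3 libraries were tested, among them 8 of the 10 Wnt genes. WNT5B and ROR2 lay below that level. Fold changes are differences of log2(FPKM + 1), which understate the change of genes with low values. With 3 libraries a group, an exact permutation of the labels (two-sided) reaches 0.1 at the lowest, so tests for single genes come from the fit.

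One library stood apart. YAP1, which counts both the cells' own transcript and the coding sequence in the vectors, was at 34.1 and 33.0 FPKM in Control replicates 1 and 2 but at 172 FPKM in Control replicate 3, within the 129.7 to 187 FPKM of the 9 YAP libraries. Results against Control were therefore also computed without Control replicate 3, and the comparisons among the YAP mutants use Control for the shared estimate of spread only. Of the 3 Control libraries it had the lowest DKK1 level, at 4.91 FPKM, and the highest levels of LEF1, SFRP1, FZD7, WNT5A and DKK3. Its WNT5A and DKK3 lay within the range of the YAP-S127A libraries and above that of YAP-S94A,S127A. Its SFRP1 and FZD7 lay within the range of the YAP-S94A,S127A libraries and above that of YAP-S127A. Its DKK1, LEF1 and FZD2 lay within neither range.

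The cells were also checked against melanocyte markers. SOX10, a transcription factor of the melanocyte lineage, was at 263 ± 25.6 FPKM in Control (SD, n = 3), 224 ± 33.7 in YAP-S127A, 272 ± 19.1 in YAP-S94A,S127A and 6.16 ± 1.44 in YAP-S127A,S381A. S100B, another marker of that lineage, likewise fell against Control in YAP-S127A,S381A, from 46.9 ± 5.22 to 0.807 ± 0.211 FPKM. MITF, the master regulator of the lineage, rose instead, from 8.59 ± 3.16 to 35.0 ± 5.54 FPKM (ratio 4.08, adjusted p = 0.000126). The summed level of 8 melanocyte lineage markers ranged from 280.7 to 344.7 FPKM in Control from 231 to 300.4 in YAP-S127A, from 300.9 to 335.7 in YAP-S94A,S127A and from 39.55 to 49.83 in YAP-S127A,S381A. SOX10 made up most of the sum in Control and MITF most of it in YAP-S127A,S381A. The pigment genes PMEL, MLANA, TYR, DCT and TYRP1 were under 1 FPKM in every group mean. The summed level of 8 markers of other cell types ranged from 6.75 to 8.11 FPKM in Control, from 13.8 to 17.5 in YAP-S127A, from 7.33 to 7.65 in YAP-S94A,S127A and from 30.3 to 38.8 in YAP-S127A,S381A. On that list the collagen gene COL1A1 rose from 0.322 ± 0.0975 FPKM in Control to 33.4 ± 4.75 in YAP-S127A,S381A and the keratin gene KRT5 from 0.0282 ± 0.043 to 1.56 ± 0.168, while KRT14, most of the Control sum, fell from 6.87 ± 0.732 to 0.434 ± 0.102 FPKM. COL1A1 and KRT5 reached the level tested only through the groups where they were high, so their values here are a description. In such bulk samples, fewer cells of a type and less RNA per cell cannot be told apart. The part of these shifts in the Wnt gene results was not tested.

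The promoter sequence of DKK1 is shown because DKK1 changed most among the 8 tested genes and rose in both mutants that lack the S94A change, and that of LEF1 because LEF1 fell most. Both are RefSeq sequences of assembly GRCh38.p14, read 5′ to 3′ on the gene's strand from 250 bases before to 50 bases after the start site, at chr10:52314031-52314330 (plus strand) for DKK1 and chr4:108166252-108166551 (minus strand) for LEF1. Capitals mark the core of the TEAD motif.

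DKK1: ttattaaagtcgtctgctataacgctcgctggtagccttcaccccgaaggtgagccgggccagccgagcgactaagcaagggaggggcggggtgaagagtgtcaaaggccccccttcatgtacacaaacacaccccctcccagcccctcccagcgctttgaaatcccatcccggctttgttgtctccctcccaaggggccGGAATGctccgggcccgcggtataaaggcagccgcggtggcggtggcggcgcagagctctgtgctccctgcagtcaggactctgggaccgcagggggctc

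LEF1: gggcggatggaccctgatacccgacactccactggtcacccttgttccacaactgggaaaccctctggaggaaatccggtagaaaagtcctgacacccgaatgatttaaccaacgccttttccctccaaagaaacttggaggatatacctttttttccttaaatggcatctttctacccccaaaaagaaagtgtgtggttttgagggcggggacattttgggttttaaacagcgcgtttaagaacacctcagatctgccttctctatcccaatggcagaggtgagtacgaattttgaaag

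The letters GGAATG, the core of the M-CAT element that TEAD factors bind, were searched on both strands. So were TGANTCA, the element of the AP-1 factors, and CTTTGAT, a single form of the element of TCF and LEF factors. Other forms of that element were not searched. The motifs do not overlap each other in these windows. The DKK1 window held GGAATG once, 50 bases before the start site, and neither of the others. GGAATG was present in 14.0% of 35116 promoter windows of the same length, TGANTCA in 7.71% and CTTTGAT in 2.62%. The windows of LEF1, ROR2, WNT5A and WNT5B, the last 2 genes with 2 start sites each, held none of the 3. Promoters of 5 of the 10 genes were used, and those of DKK3, FZD2, FZD7, SFRP1 and AXIN2 were not used here.

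Against Control, YAP-S127A,S381A cells had more DKK1 and FZD2 and less LEF1, FZD7 and SFRP1. Of the 8 tested Wnt genes 2 rose, where 7.59% of all tested loci rose, and 3 fell, where 7.86% of all tested loci fell. In YAP-S127A cells DKK1 alone rose, 1 of 8 against 2.07% of loci, and 0 fell in the limma fit, against 0.405% of loci, FZD7 having an unadjusted p of 0.0363 for a lower level. In YAP-S94A,S127A cells 0 of the 8 changed by limma, where 0.0797% of loci rose and 0.093% fell, and 1 of them, DKK1, had an unadjusted p under 0.05. The 3 comparisons share the Control libraries. The genes were chosen with earlier results of these data known, so the counts set beside these shares are a description.

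**Figure D1:**
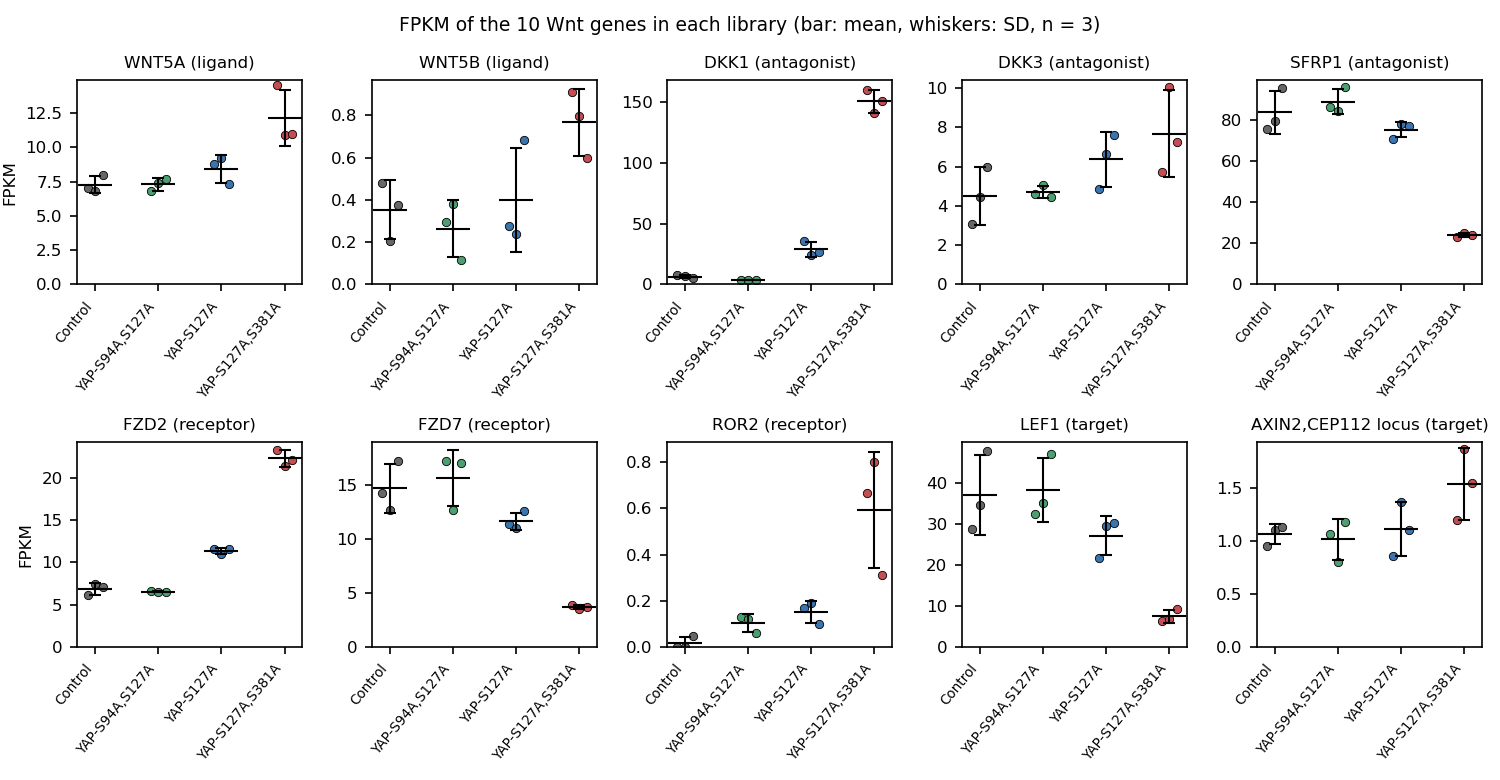
FPKM of the 10 Wnt genes in each of the 12 libraries, by group, on linear axes from 0 that differ between panels. Each point is a library, the horizontal bar the group mean and the whiskers the SD of 3 libraries. The YAP-S127A,S381A libraries lie apart from all others for DKK1, FZD2, SFRP1, FZD7, LEF1, WNT5A and ROR2, with DKK1 between 141 and 160.3 FPKM.

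Among the antagonists, DKK1 (chr10:54074041-54077802 in GRCh37, plus strand) had the widest range of levels. It stood at 7.83, 6.53 and 4.91 FPKM in the Control libraries and at 3.24, 3.55 and 3.66 FPKM in the YAP-S94A,S127A libraries. It was at 35.6, 23.9 and 27.1 FPKM in the YAP-S127A libraries and at 160.3, 141 and 151 FPKM in the YAP-S127A,S381A libraries. No library of a group overlapped with those of another, and the order was YAP-S94A,S127A, Control, YAP-S127A and YAP-S127A,S381A.

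Group means of DKK1 were 6.42 ± 1.46 FPKM (SD, n = 3) in Control, 3.48 ± 0.220 in YAP-S94A,S127A, 28.8 ± 6.03 in YAP-S127A and 151 ± 9.56 in YAP-S127A,S381A. YAP-S127A was 4.49-fold above Control, a log2 fold change of 2.01 (SE 0.16, adjusted p = 3e-05). It was 8.28-fold above YAP-S94A,S127A, which differs from it by the S94A change, with a log2 fold change of 2.72 (SE 0.16, adjusted p = 3.4e-06). Adding S381A to YAP-S127A gave a further 5.23-fold difference, with a log2 fold change of 2.37 (SE 0.16, adjusted p = 1.21e-06). The step between YAP-S94A,S127A and Control did not pass the test across all loci, with a log2 fold change of -0.71 (SE 0.16, adjusted p = 0.392), and without Control replicate 3 it was -0.86 (adjusted p = 0.0801). The other steps were also past the threshold without that library, with log2 fold changes over Control of 1.85 for YAP-S127A and 4.22 for YAP-S127A,S381A.

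SFRP1 (chr8:41119481-41166992, minus strand) went the other way, and in YAP-S127A,S381A alone. It was the most abundant of the 10 genes in Control, at 75.8, 79.7 and 95.7 FPKM, and was at 86.2, 84.5 and 95.8 FPKM in YAP-S94A,S127A. The YAP-S127A libraries had 71.0, 77.8 and 77.1 FPKM, and the YAP-S127A,S381A libraries 23.1, 24.9 and 24.1 FPKM. The first 3 groups lay close together and the last lay below all of them.

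SFRP1 was 3.48-fold lower in YAP-S127A,S381A than in Control, with a log2 fold change of -1.75 (SE 0.09, adjusted p = 5.43e-08), and 3.13-fold lower than in YAP-S127A (adjusted p = 2.36e-07). Between YAP-S127A and Control the log2 fold change was -0.15 (SE 0.09, adjusted p = 0.398), and between YAP-S127A and YAP-S94A,S127A it was -0.23 (SE 0.09, adjusted p = 0.115). The latter difference was past the threshold without Control replicate 3, with an adjusted p of 0.0427. In Control, SFRP1 exceeded DKK1, at mean levels of 83.7 and 6.42 FPKM, whereas in YAP-S127A,S381A the order was turned, at 24.0 and 151 FPKM.

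DKK3 (chr11:11977754-12031316, minus strand) differed little against its spread. Its Control libraries had 3.06, 4.48 and 6.0 FPKM, its YAP-S94A,S127A libraries 4.62, 5.04 and 4.43 FPKM. The YAP-S127A libraries had 4.85, 6.62 and 7.62 FPKM and the YAP-S127A,S381A libraries 5.71, 10.1 and 7.24 FPKM. The groups overlapped, apart from YAP-S127A,S381A and YAP-S94A,S127A. The ratio of YAP-S127A,S381A to Control was 1.70, with a log2 fold change of 0.66 (SE 0.23, adjusted p = 0.0376). The adjusted p was 0.135 when Control replicate 1 was left out, 0.0738 when Control replicate 2 or YAP-S127A,S381A replicate 3 was, 0.137 when YAP-S127A,S381A replicate 2 was, and 0.0507 when YAP-S94A,S127A replicate 1 or 3 was. Without Control replicate 3 the ratio passed 2, so that 3 of the 8 genes then counted as higher.

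Of the ligands, WNT5A (chr3:55499743-55524567, minus strand) was higher in YAP-S127A,S381A by less than the fold threshold. It was at 7.02, 6.82 and 8.0 FPKM in Control, at 6.79, 7.41 and 7.71 FPKM in YAP-S94A,S127A and at 8.77, 9.25 and 7.30 FPKM in YAP-S127A. In YAP-S127A,S381A it was at 14.5, 10.9 and 11.0 FPKM, above every library of the other groups, which overlapped among themselves. The ratio to Control was 1.67 (log2 fold change 0.66, SE 0.12, adjusted p = 0.00105), and the ratio to YAP-S127A was 1.44 (log2 fold change 0.47, SE 0.12, adjusted p = 0.0108).

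WNT5B (chr12:1639057-1756378, plus strand), the close relative of WNT5A, was under 1 FPKM in all 12 libraries. It had 0.480, 0.204 and 0.375 FPKM in Control, 0.294, 0.380 and 0.117 in YAP-S94A,S127A and 0.277, 0.239 and 0.683 in YAP-S127A. The YAP-S127A,S381A libraries, at 0.912, 0.795 and 0.598 FPKM, overlapped with those of YAP-S127A only. In a fit without the filter on low values, over 23437 loci, the log2 fold change of YAP-S127A,S381A was 0.39 against Control (SE 0.13, adjusted p = 0.0510) and 0.49 against YAP-S94A,S127A (SE 0.13, adjusted p = 0.0183).

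The receptors FZD2 and FZD7, both Frizzled proteins, moved in opposite directions. FZD2 (chr17:42634852-42638630, plus strand) was at 6.11, 7.39 and 7.13 FPKM in Control and at 6.59, 6.5 and 6.5 FPKM in YAP-S94A,S127A. It was at 11.5, 11.0 and 11.6 FPKM in YAP-S127A and at 23.4, 21.5 and 22.2 FPKM in YAP-S127A,S381A. Control and YAP-S94A,S127A overlapped, and the other groups lay above them in separate ranges.

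FZD2 followed the order of DKK1 over those 2 upper groups on a smaller scale. YAP-S127A was 1.66-fold above Control, with a log2 fold change of 0.66 (SE 0.07, adjusted p = 0.000214), and 1.74-fold above YAP-S94A,S127A (log2 fold change 0.72, adjusted p = 9.13e-05). YAP-S127A,S381A was 3.25-fold above Control, with a log2 fold change of 1.57 (SE 0.07, adjusted p = 2.23e-08). Its ratio to YAP-S127A was 1.97 (adjusted p = 2.79e-06), just under the fold threshold, which it passed without YAP-S127A,S381A replicate 2, the lowest of its group.

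FZD7 (chr2:202898578-202903164, plus strand) was at 14.2, 12.7 and 17.2 FPKM in Control and at 17.2, 12.7 and 17.1 FPKM in YAP-S94A,S127A. The YAP-S127A libraries had 11.4, 11.0 and 12.5 FPKM, just below all of those, and the YAP-S127A,S381A libraries 3.83, 3.51 and 3.68 FPKM. The fall in YAP-S127A,S381A was 4.01-fold against Control, with a log2 fold change of -1.74 (SE 0.13, adjusted p = 1.22e-06), and 3.18-fold against YAP-S127A (adjusted p = 9.85e-06). In YAP-S127A the log2 fold change was -0.30 against Control (SE 0.13, adjusted p = 0.215) and -0.39 against YAP-S94A,S127A (SE 0.13, adjusted p = 0.0813). FZD7 exceeded FZD2 in Control, with means of 14.7 and 6.88 FPKM, and FZD2 exceeded FZD7 in YAP-S127A,S381A, with means of 22.4 and 3.67 FPKM.

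ROR2 (chr9:94325373-94712510, minus strand), a receptor tyrosine kinase for WNT5A, was close to the lower end of measurement. It was listed at 0, 0 and 0.0454 FPKM in Control, at 0.128, 0.120 and 0.0600 in YAP-S94A,S127A and at 0.169, 0.188 and 0.0973 in YAP-S127A. The YAP-S127A,S381A libraries had 0.667, 0.800 and 0.313 FPKM, above all others. In the fit without the filter on low values the log2 fold change of YAP-S127A,S381A was 0.64 against Control (SE 0.10, adjusted p = 0.000534) and 0.46 against YAP-S127A (SE 0.10, adjusted p = 0.00619).

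Of the beta-catenin targets, LEF1 fell in YAP-S127A,S381A, whereas the shared AXIN2 locus did not pass the test against Control. LEF1 (chr4:108968701-109090112, minus strand), which is itself a partner of beta-catenin on DNA, was at 28.8, 34.6 and 47.7 FPKM in Control and at 32.4, 35.1 and 46.9 FPKM in YAP-S94A,S127A. It was at 21.6, 29.4 and 30.3 FPKM in YAP-S127A, overlapping with Control, and at 6.15, 6.82 and 9.14 FPKM in YAP-S127A,S381A, below all others. The mean fell 5.03-fold from Control to YAP-S127A,S381A, with a log2 fold change of -2.17 (SE 0.21, adjusted p = 1.35e-05), and 3.67-fold from YAP-S127A (adjusted p = 0.000115). Between YAP-S127A and Control the log2 fold change was -0.42 (SE 0.21, adjusted p = 0.319). Within each replicate number YAP-S127A was below Control, and with replicate number added to the limma fit the adjusted p was 0.0207. The labels link the libraries by that number alone, so whether these are true pairs is not known. SOX10, the lineage factor, fell in the same comparison as LEF1, and its part in this result was not tested.

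The locus that holds AXIN2 (chr17:63524681-63557766, minus strand) together with CEP112 was at 0.953, 1.10 and 1.13 FPKM in Control and at 1.06, 0.803 and 1.17 FPKM in YAP-S94A,S127A. It was at 0.860, 1.37 and 1.10 FPKM in YAP-S127A and at 1.19, 1.87 and 1.55 FPKM in YAP-S127A,S381A. The last group lay above Control and above YAP-S94A,S127A, but the log2 fold change of 0.29 against Control did not pass the test (SE 0.13, adjusted p = 0.0929). It did so without YAP-S127A,S381A replicate 1, with an adjusted p of 0.0403.

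**Figure D2:**
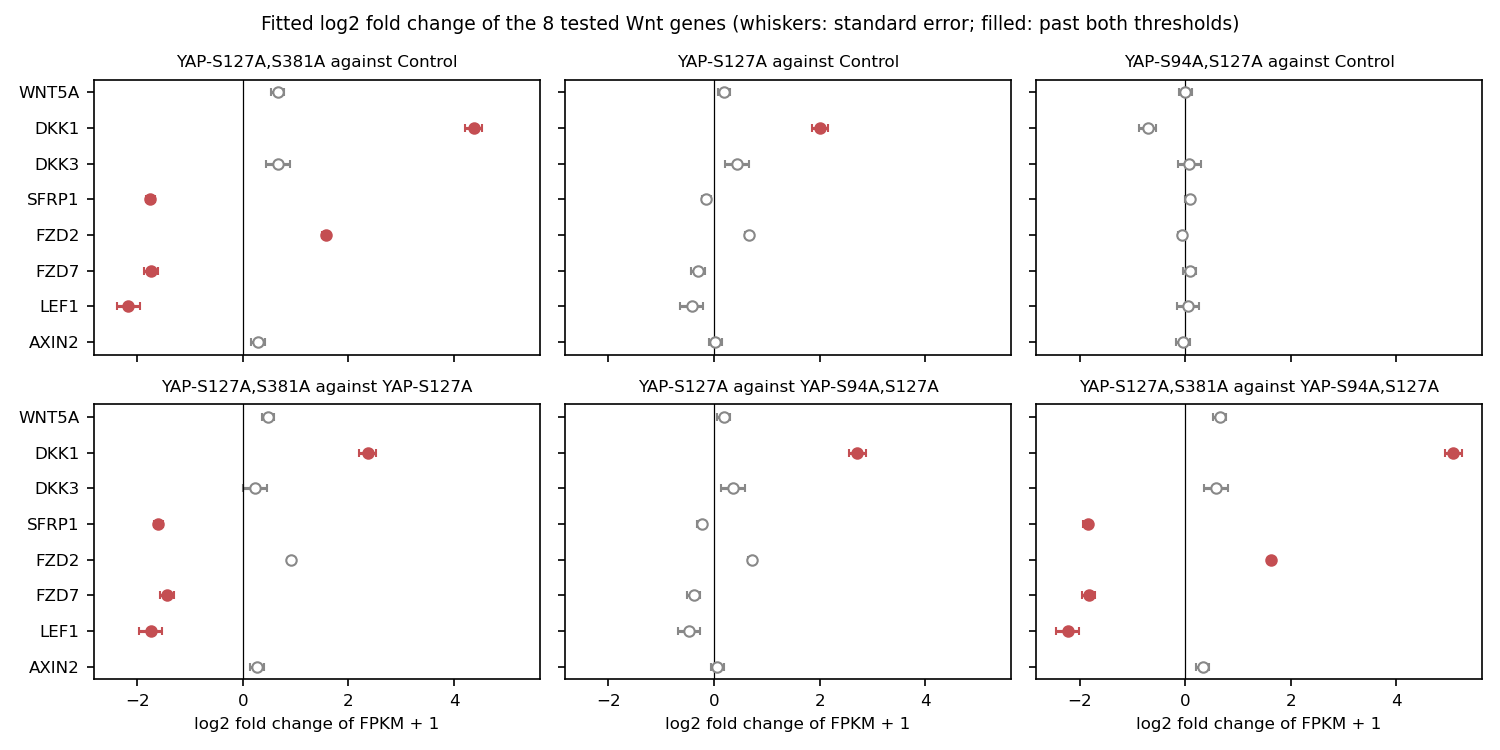
Fitted log2 fold change of FPKM + 1 for the 8 tested Wnt genes in the 6 comparisons. Whiskers are standard errors, and filled points passed both thresholds. DKK1 passed in every comparison except YAP-S94A,S127A against Control, whereas LEF1, FZD7 and SFRP1 passed only where YAP-S127A,S381A was compared.

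Among the mutants the genes that passed varied with the pair compared. Adding S381A to YAP-S127A raised 1 of the 8 tested genes, DKK1, where 5.17% of tested loci rose, and lowered 3, where 5.94% fell. YAP-S127A against YAP-S94A,S127A again raised DKK1 alone, 1 of 8 where 2.54% of loci rose, and lowered 0 by limma, where 0.95% fell, with SFRP1, FZD7 and LEF1 lower at an unadjusted p under 0.05. YAP-S127A,S381A against YAP-S94A,S127A raised 2, where 7.81% of loci rose, and lowered 3, where 8.1% fell. In this last comparison DKK1 differed 43.3-fold and LEF1 was 5.18-fold lower. As against Control, these counts are a description, since the genes were chosen with earlier results known.

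The wider pathway was read from lists of 131 genes in the table, 88 of them tested and the Wnt genes above included. YAP-S127A,S381A raised 13 of the 88 and lowered 17 against Control, where 7.59% of all tested loci rose and 7.86% fell. Some genes, such as WNT7A, WNT9A and C2orf89, reached the level tested only through the groups where they were high, so these counts are a description. With at least 1 FPKM required in all libraries, which tests fewer loci, 8 rose and 11 fell. The share of all loci under that filter is not given here. YAP-S127A raised 4 of the 88, where 2.07% of loci rose, namely DKK1, WNT7A, IGFBP4 and C2orf89. It lowered 0 by limma, where 0.405% of loci fell, with 1 gene lower at an adjusted p under 0.05 and less than the fold threshold. YAP-S94A,S127A changed 0 of the 88 by limma, where 0.0797% of loci rose and 0.093% fell, with 4 at an unadjusted p under 0.05. The median log2 fold change of the list in YAP-S127A,S381A was 0.04, against 0.01 over all tested loci.

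Of 24 ligands listed, 5 were tested. In YAP-S127A,S381A against Control 3 of them, WNT3, WNT7A and WNT9A, rose and 0 fell by limma. Of all tested loci 7.59% rose and 7.86% fell in that comparison. WNT7A, WNT9A and C2orf89 reached the level tested only through the groups where they were high, so their values here are a description. WNT7A, a ligand known from limb and brain development, was at 0, 0 and 0.0432 FPKM in Control, at 0, 0.0381 and 0 in YAP-S94A,S127A, at 1.13, 1.25 and 0.852 in YAP-S127A and at 4.87, 6.59 and 4.93 in YAP-S127A,S381A. It was at or near 0 in Control and YAP-S94A,S127A and higher in both other groups. Its log2 fold changes over Control were 1.03 (SE 0.12) in YAP-S127A and 2.66 (SE 0.12) in YAP-S127A,S381A. WNT3 rose from a mean of 1.46 ± 0.197 to 4.38 ± 0.353 FPKM between Control and YAP-S127A,S381A, and WNT9A from 0.649 ± 0.151 to 2.26 ± 0.519 FPKM (SD, n = 3). C2orf89, now named TRABD2A, encodes a protease that inactivates Wnt ligands, and it rose from 0.564 ± 0.163 FPKM in Control to 1.23 ± 0.218 in YAP-S127A and 2.53 ± 0.250 in YAP-S127A,S381A. For C2orf89 in YAP-S127A the adjusted p was 0.115 when only the libraries compared were fitted, 0.0503 without Control replicate 1, 0.0733 without Control replicate 2 and 0.0685 without YAP-S127A replicate 1.

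Of 8 tested antagonists, 2 rose and 2 fell in YAP-S127A,S381A, where 7.59% of all tested loci rose and 7.86% fell, the shares that also stand behind the counts by role that follow. The other riser beside DKK1 was IGFBP4, a binding protein of insulin-like growth factors that can also bind LRP6 and Frizzled, at 66.0 ± 2.83 FPKM in Control, 138 ± 10.6 in YAP-S127A and 276 ± 9.40 in YAP-S127A,S381A. The other gene that fell beside SFRP1 was SFRP5 of the same family, from 1.06 ± 0.164 FPKM in Control to 0.0238 ± 0.0206. SFRP5 reached the level tested only through the groups where it was high. Of 16 tested receptors, 2 rose and 4 fell. FZD8 fell from 14.9 ± 1.88 to 1.21 ± 0.164 FPKM, FZD9 from 2.30 ± 0.0735 to 0.654 ± 0.142 FPKM, and the co-receptor LRP6, to which DKK1 binds, from 14.6 ± 1.51 to 6.74 ± 0.780 FPKM.

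Inside the cell, 2 of 30 tested genes of the beta-catenin branch rose, a share close to the 7.59% of all loci, and 7 fell, where 7.86% of all loci did. CTNNBIP1, an inhibitor that keeps beta-catenin from TCF factors, fell from 26.3 ± 2.16 FPKM in Control to 3.32 ± 0.265. The co-repressor TLE3 fell from 5.44 ± 0.788 to 0.665 ± 0.121 FPKM, while its relative TLE4 rose from 24.2 ± 1.49 to 52.0 ± 1.24 FPKM. The TCF factor TCF7L2 fell from 25.7 ± 3.75 to 12.3 ± 1.11 FPKM and the kinase GSK3B, which marks beta-catenin for degradation, from 25.7 ± 3.06 to 12.1 ± 0.433 FPKM. The beta-catenin co-activator BCL9L rose from 13.5 ± 0.651 to 30.8 ± 1.48 FPKM. The genes that fell thus included both activators and inhibitors of the branch.

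Of 8 tested beta-catenin targets, 2 rose, DKK1 and the growth factor gene BMP4, and 2 fell, LEF1 and the receptor gene TNFRSF19. BMP4 was at 1.5 ± 0.693 FPKM in Control and 8.87 ± 1.56 in YAP-S127A,S381A, and TNFRSF19 at 20.1 ± 0.976 and 0.342 ± 0.0231 FPKM. Of 22 tested genes of the branch without beta-catenin, 2 rose and 3 fell, the rises again close to the 7.59% of all loci. The planar polarity gene VANGL2 rose from 1.14 ± 0.160 to 4.20 ± 0.517 FPKM and DAAM1, a formin downstream of Dishevelled, from 1.59 ± 0.116 to 4.14 ± 0.159 FPKM. NFATC2, a calcium-dependent transcription factor, fell from 39.0 ± 3.21 to 0.980 ± 0.0513 FPKM. DAAM2, the relative of DAAM1, fell from 2.57 ± 0.336 to 1.23 ± 0.127 FPKM and GPC6 from 6.09 ± 0.340 to 2.67 ± 0.0283 FPKM.

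**Figure D3:**
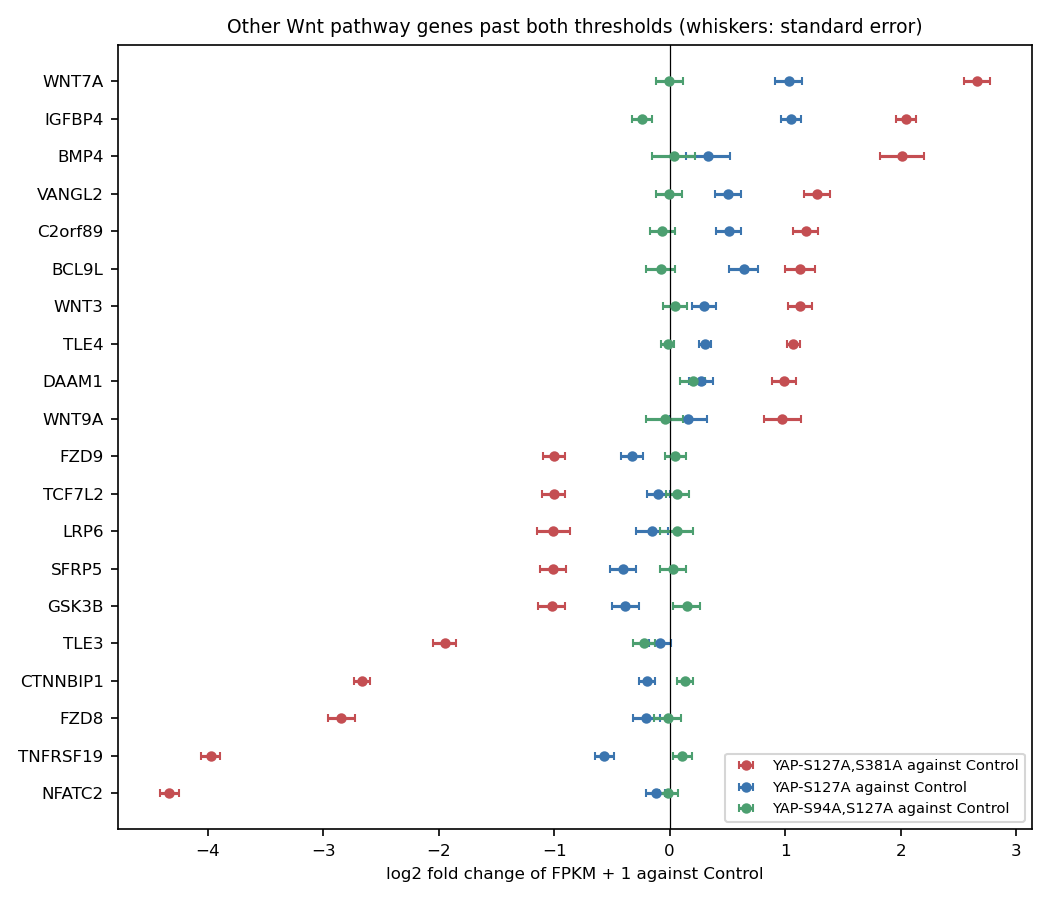
Log2 fold change of FPKM + 1 against Control for 20 other Wnt pathway genes past both thresholds in at least 1 of the 3 comparisons. Points are fitted values of the 3 YAP mutants and whiskers their standard errors. The YAP-S127A,S381A values run from -4.33 for NFATC2 to 2.66 for WNT7A, and those of YAP-S94A,S127A lie near 0.

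The 5 loci whose profile over the 12 libraries was nearest to that of DKK1, among 13488 tested loci with a single gene name, were PTX3, UNC13D, COL1A1, NRG1 and LOC100505817. Likeness was the root mean square difference of log2(FPKM + 1) after each gene's mean over the libraries was removed, and it ran from 0.25 for PTX3 to 0.35 for LOC100505817. PTX3 was at 1.24 to 1.82 FPKM in Control, at 1.12 to 1.51 in YAP-S94A,S127A, at 7.13 to 10.8 in YAP-S127A and at 50.3 to 58.3 in YAP-S127A,S381A. No other Wnt gene was among the 5. The profiles were not scaled to a common range, so the measure ranks by size of change as well as by pattern. Group means of IGFBP4, WNT7A and FZD2 had the same order as those of DKK1. The 5 loci were chosen for their likeness, so their profiles are a description without a test.

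**Figure D4:**
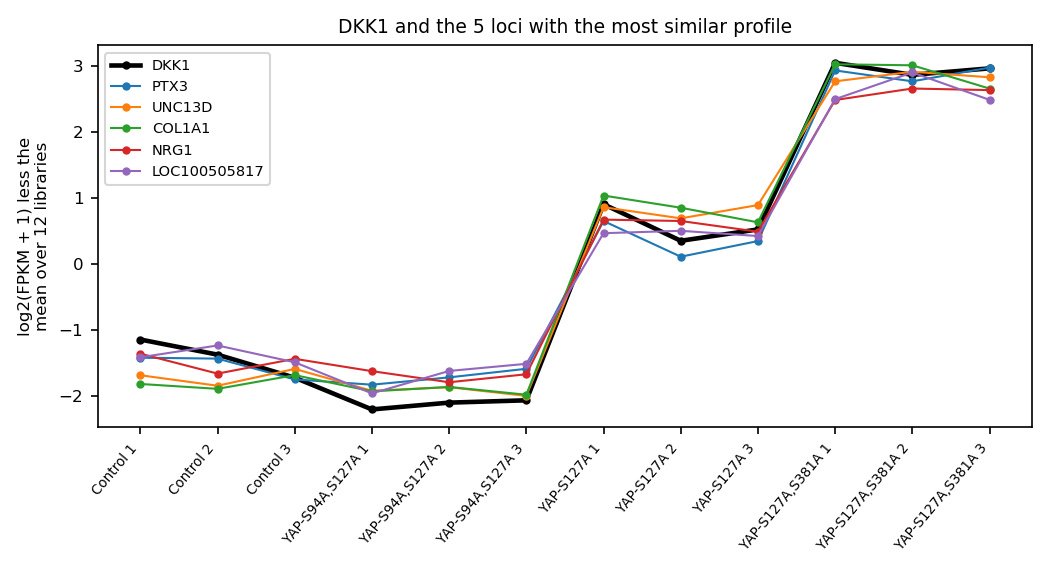
Log2(FPKM + 1) of DKK1 and of the 5 loci with the most similar profile, less each locus's mean over the 12 libraries, by library. Each line is a locus. All 6 lines rise from the Control and YAP-S94A,S127A libraries to YAP-S127A and again to YAP-S127A,S381A.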

How the data were processed

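RNA of 12 A375 libraries, 3 per group, was sequenced by the authors. Per the labels and the study's methods, reads were demultiplexed with bcl2fastq 2.15.0 and aligned to hg19 with Bowtie2 2.0.0 and TopHat2 2.0.4, and Cufflinks 2.0.2 gave FPKM, which the authors deposited as log2(FPKM + 1). After removal of 3 duplicate entries from 31588, the table had 31585 loci. No read counts were used, so depth limits each value by an unknown amount. FPKM sums ranged from 790865 to 901558 per library, and how multiply aligned reads were divided is not given in the sources used here.

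Libraries were grouped by title. The deposited values of all 12 libraries were fitted with limma 3.58.1 in R 4.3.3, with 1 mean per group, an intensity trend and Benjamini-Hochberg adjustment over the 15055 loci with at least 1 FPKM in at least 3 libraries. All pairs of groups were compared. A call needed both an adjusted p below 0.05 and group mean FPKM, taken without pseudocount, that differed by over 2-fold. The fit was tested on simulated data. Within a group, libraries correlated at 0.960 to 0.975 across loci.

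The members and lists were chosen with earlier results of these data known. Named genes were the 10 members, YAP1, marker genes, the pathway genes past both thresholds against Control (at most 20, largest log2 fold change first) and the 5 loci nearest to DKK1. DAAM2 and GPC6 were named in addition, to complete the genes that fell in their list. Coordinates come from GENCODE on GRCh37, the promoters from RefSeq. Alternatives were another pseudocount (0.1), other filters, median-ratio and quantile scaling, only the libraries compared, a replicate block, no trend, no fold threshold and each library left out. Plots used matplotlib 3.10.9 under Python 3.11.15.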

Additional observations from a re-analysis of the deposited data

How the results depend on the processing

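The rises of DKK1 and FZD2 and the falls of SFRP1, FZD7 and LEF1 in YAP-S127A,S381A against Control, and the rise of DKK1 in YAP-S127A, were past the test's threshold under every alternative run. Over 77 gene and comparison values, 1477 of 1522 recomputed values kept their direction and their side of the adjusted p threshold, 12 lost it, 19 gained it and 14 changed sign. The share of all loci called is given here for the main setting only. Counts of genes under other settings, here and below, thus describe how the lists moved and are not set against a background. Without the fold threshold, the Wnt genes counted as higher were 4 in YAP-S127A,S381A against Control, 2 in YAP-S127A against Control, 3 in YAP-S127A,S381A against YAP-S127A and 2 in YAP-S127A against YAP-S94A,S127A. The wider list then had 32 higher and 30 lower, 11 higher and 1 lower, 24 higher and 27 lower, and 13 higher and 5 lower in these comparisons, and 31 each way in YAP-S127A,S381A against YAP-S94A,S127A. With at least 1 FPKM required in all libraries, which tests fewer loci, it had 8 higher and 11 lower in YAP-S127A,S381A against Control, 2 higher in YAP-S127A against Control, 2 higher and 6 lower in YAP-S127A,S381A against YAP-S127A, 2 higher in YAP-S127A against YAP-S94A,S127A, and 8 higher and 11 lower in YAP-S127A,S381A against YAP-S94A,S127A. Without a filter, which adds loci such as ROR2 and WNT5B, the Wnt genes higher were 2 and the list 12 in YAP-S127A,S381A against YAP-S127A, and 4 and 20 against YAP-S94A,S127A. With quantile normalization the list had 1 lower in YAP-S127A against Control and 1 against YAP-S94A,S127A, and the log2 fold change of the AXIN2 locus in YAP-S127A against Control was -0.000333 in place of 0.03. DKK3 in YAP-S127A,S381A against Control had an adjusted p of 0.0567 without a filter and 0.0878 with only the libraries compared. The causes of the changes under quantile normalization were not tested.

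Without Control replicate 3, YAP-S127A,S381A against Control had 3 higher and 3 lower Wnt genes and 15 higher and 13 lower list genes. Leaving out 1 library at a time gave 0 to 1 lower list genes in YAP-S127A against Control and against YAP-S94A,S127A, where leaving out YAP-S127A replicate 2 gave 1 in both and leaving out YAP-S94A,S127A replicate 2 gave 1 in the latter, and 1 to 2 higher Wnt genes in YAP-S127A,S381A against YAP-S127A, where leaving out YAP-S127A,S381A replicate 2 added FZD2. In YAP-S94A,S127A against Control, where no Wnt gene passed the test, log2 fold changes near 0 ran over both signs, from -0.0348 to 0.0662 for WNT5A, -0.12 to 0.27 for DKK3, -0.0103 to 0.22 for FZD7, -0.11 to 0.25 for LEF1 and -0.10 to 0.0387 for the AXIN2 locus. The AXIN2 locus also ran from -0.0603 to 0.11 in YAP-S127A against Control and from -0.022 to 0.15 in YAP-S127A against YAP-S94A,S127A.

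The labels link samples with the same replicate number by the number alone. The correlations that follow are over all tested loci and cannot show whether single genes share a replicate effect. LEF1 rose with the replicate number in every group. The deviations of 18 same-numbered pairs correlated at -0.149 to 0.163 and those of 36 other pairs at -0.119 to 0.188, and 5 of 12 libraries correlated best with their own number. With the replicate block, the counts of Wnt genes past both thresholds were 2 higher and 3 lower in YAP-S127A,S381A against Control, as without it, and 4 values gained a p past the threshold: LEF1 in YAP-S127A against Control (adjusted p = 0.0207) and against YAP-S94A,S127A (0.00889), FZD7 in YAP-S127A against YAP-S94A,S127A (0.0288) and DKK3 in YAP-S127A,S381A against YAP-S94A,S127A (0.0211). Unknown read depth limits WNT5B, ROR2 and the AXIN2 locus most, since all lie near or under 1 FPKM.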

Other observations

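DKK2, a relative of DKK1, lay below the level tested and was picked after its values were seen. Its group means were 0.00771 ± 0.0134 FPKM in Control (SD, n = 3), 0.0063 ± 0.0109 in YAP-S94A,S127A, 0.297 ± 0.0650 in YAP-S127A and 1.12 ± 0.349 in YAP-S127A,S381A. The beta-catenin gene itself, CTNNB1, and the target genes CCND1 and MYC, which were likewise picked afterwards, differed from Control in YAP-S127A,S381A by log2 fold changes of -0.37 (SE 0.06, adjusted p = 0.000534), 0.29 (SE 0.09, adjusted p = 0.0301) and -0.17 (SE 0.15, adjusted p = 0.385) in the limma fit, all under the fold threshold. LGR5, a receptor of R-spondins and a beta-catenin target, was at 0.0171 ± 0.0149 FPKM in Control, 0.00536 ± 0.00928 in YAP-S94A,S127A, 0.121 ± 0.0493 in YAP-S127A and 0.644 ± 0.0865 in YAP-S127A,S381A. It also lay below the level tested and was picked after its values were seen. Other list genes below that level went the other way. The beta-catenin target TCF7 had a mean of 0.808 ± 0.226 FPKM in Control and 0.241 ± 0.0852 in YAP-S127A,S381A, and NKD2 and DACT1 were also lower there.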
